A study of Homo sapiens with 4 samples.

Results

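The 5q31 to 5q33 interval lies on the long arm of chromosome 5 and was taken as the probes whose start falls between positions 130000000 and 156000000 of hg19, a stretch of 26 Mb. Of 595 probes in this stretch, 205 were left out by gene name (protocadherins, heat shock and DNAJ genes, ribosomal proteins, respiratory chain subunits, long noncoding and antisense transcripts, and 7 single genes), which left 390 probes with 289 gene names among 58185 probes in all. The rule for membership used position and name only, and no signal, but it was set with earlier results of these data known. The RNA came from MDS-L, a line established from cells of a patient with myelodysplastic syndrome (MDS), and from MDS-L/CDA, a derivative that the authors made resistant to 5-azacytidine (AZA) by transducing CDA. Each line was kept for 72 h with 0.1% DMSO, the vehicle, or with AZA at 1 μM, and each of the 4 conditions was measured on 1 single-dye Agilent array. All cells were grown with interleukin-3, given as 20 ng/mL in the sample labels and at a lower concentration in the study's methods. The sample titles give the AZA dose as 1 mM, and the dose used here is that of the source names and the methods. MDS-L/CDA is 1 transduced derivative of 1 line, and the transduction and the resistance cannot be told apart in any comparison of the lines. For 2 arrays, MDS-L with AZA and MDS-L/CDA without it, one label field names the opposite treatment, and the groups used here follow the source names. With 1 array per condition no test was possible, and every ratio below has no replicate check.

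Loss of part of 5q is among the most frequent chromosome changes in MDS, and MDS-L is used as a model of MDS with such a loss. Several genes of the lost region are thought to act through dosage, since the remaining copy gives less product. AZA is incorporated into nucleic acids, traps DNA methyltransferases and lowers the methylation of CG dinucleotides, which are often dense at promoters. The copy number and the methylation of the interval were not measured here, and a transcript level on an array does not give either.

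The probes shown next carry the results on single genes. They are members with large AZA ratios, the chemokine gene measured in 1 condition only, and 3 genes whose probes differed from one another, and they were picked after their values were seen. Each is given by its hg19 position and strand and by the first 30 of its 60 bases, 5′ to 3′, with CG in capitals. The longer spans of the dim SKP1 probe and the upstream PPARGC1B probe belong to probes that are split over more than 60 bases of the genome.
REEP2, chr5:137782577-137782636, plus strand: ctccCGgttccttgggaagagggtgcccat
KIF3A, chr5:132032014-132032073, minus strand: ggggaacagttcatactatagagagttaca
VTRNA1-1, chr5:140090876-140090935, plus strand: agCGgttacttCGacagttctttaattgaa
CXCL14, chr5:134907494-134907553, minus strand: aCGaagaatagggtgaaaaacctcagaagg
SKP1, dim probe, chr5:133502919-133509660, minus strand: ggaaattgccaaacaatctgtgactatcaa
SKP1, bright probe, chr5:133493155-133493214, minus strand: ttttttctttgctctgaataaaactgaact
IRGM, upstream probe, chr5:150228172-150228231, plus strand: ctgcagatcagagaaaatgtcctggaaaat
IRGM, downstream probe, chr5:150280199-150280258, plus strand: ctagccagtgcatatgacatatactgggta
PPARGC1B, upstream probe, chr5:149221927-149225368, plus strand: acaagaaataggagaggCGagaagtaCGgc
PPARGC1B, downstream probe, chr5:149234475-149234534, plus strand: cacagaaactgtagaatctctatgctcatg
REEP2 shapes the membrane of the endoplasmic reticulum, KIF3A is a motor subunit of kinesin-2, and VTRNA1-1 is a small noncoding RNA found in vault particles. SKP1 is the adaptor of SCF ubiquitin ligases, IRGM is a GTPase of autophagy, and PPARGC1B is a coactivator of mitochondrial genes. Which exon or untranslated region each probe lies in was not determined, because no annotation of hg19 was used here.

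The promoters of 5 members with a higher signal under AZA in at least 1 line are shown as the 250 bases before the transcription start, from RefSeq on GRCh38.p14, a different build from the hg19 of the probes. CG is in capitals. They too were picked after their values were seen, and the first listed promoter of each gene was used. Other members with a higher signal under AZA are not shown, among them MIR143HG with 5 CG and KLHL3 with 2.
REEP2 promoter, chr5:138438807-138439056, plus strand: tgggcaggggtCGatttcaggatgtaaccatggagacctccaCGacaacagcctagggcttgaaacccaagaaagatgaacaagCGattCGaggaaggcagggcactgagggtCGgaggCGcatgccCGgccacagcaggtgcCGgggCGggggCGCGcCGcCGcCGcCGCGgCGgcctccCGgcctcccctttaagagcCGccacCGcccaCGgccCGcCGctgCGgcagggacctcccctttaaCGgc
KIF3A promoter, chr5:132737547-132737796, minus strand: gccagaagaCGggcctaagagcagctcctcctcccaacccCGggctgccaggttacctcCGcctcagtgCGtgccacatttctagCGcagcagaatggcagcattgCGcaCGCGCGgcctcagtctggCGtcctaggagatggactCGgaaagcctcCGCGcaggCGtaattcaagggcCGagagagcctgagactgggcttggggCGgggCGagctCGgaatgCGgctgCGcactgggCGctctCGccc
CXCL14 promoter, chr5:135578992-135579241, minus strand: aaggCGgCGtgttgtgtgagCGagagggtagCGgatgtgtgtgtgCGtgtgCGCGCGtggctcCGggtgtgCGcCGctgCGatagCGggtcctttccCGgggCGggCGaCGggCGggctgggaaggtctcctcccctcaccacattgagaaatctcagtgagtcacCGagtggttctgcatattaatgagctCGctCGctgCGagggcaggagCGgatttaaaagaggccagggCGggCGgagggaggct
HBEGF promoter, chr5:140346604-140346853, minus strand: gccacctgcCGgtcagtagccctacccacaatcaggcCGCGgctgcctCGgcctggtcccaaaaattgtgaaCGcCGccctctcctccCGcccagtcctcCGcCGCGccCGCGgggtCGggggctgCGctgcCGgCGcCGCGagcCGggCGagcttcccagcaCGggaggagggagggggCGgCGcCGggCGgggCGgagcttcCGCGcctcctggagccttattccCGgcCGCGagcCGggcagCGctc
SPARC promoter, chr5:151686916-151687165, minus strand: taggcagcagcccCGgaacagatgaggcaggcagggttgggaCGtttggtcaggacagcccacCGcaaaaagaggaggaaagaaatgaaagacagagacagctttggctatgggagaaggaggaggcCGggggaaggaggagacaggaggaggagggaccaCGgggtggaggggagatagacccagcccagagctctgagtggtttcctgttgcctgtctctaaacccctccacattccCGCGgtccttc
The only motif searched was CG, which reads the same on both strands. It occurred 25 times before REEP2, 22 times before KIF3A, 25 times before CXCL14 and 33 times before HBEGF, but 7 times before SPARC. Of 189 members with a promoter in RefSeq, 123 (65.1%) held at least 10 CG in these 250 bases, as did 52.2% of 35116 RefSeq promoters. The median was 18 CG in the members and 11 in all promoters. These sets are unlike, since members are genes on the array with long noncoding, antisense and other names left out. The same names were not left out of all promoters, so the difference says nothing particular of the interval. Members well above background on all 4 arrays had a median of 21 CG (n = 105), and members above background on none had a median of 6 (n = 72). The promoters of genes with signal were thus denser in CG than those of genes without, and the letters say nothing of whether a CG was methylated in these cells.

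Signal was taken as measured where the scanner software marked the spot as well above background. This held for 172 of 390 interval probes (44.1%, exact 95% interval 39.1% to 49.2%) for MDS-L with vehicle, 175 (44.9%) for MDS-L with AZA, 159 (40.8%) for MDS-L/CDA with vehicle and 161 (41.3%) for MDS-L/CDA with AZA. These intervals cover counting error only. Among other autosomal probes the share was 35.3%, 36.7%, 32.7% and 32.8% in the same order, and 42.9%, 44.4%, 40.1% and 40.3% once the same gene names were left out there too, a comparison added after the data had been seen. The interval was therefore measured about as often as other autosomal probes named in the same way. In all, 155 probes were well above background on all 4 arrays, 208 on none and 27 on 1 to 3 arrays. The 13 probes above background on a single array were all on an MDS-L array, 4 on the vehicle (1.03%, against 1.05% of other autosomal probes) and 9 on the AZA array (2.31%, against 2.37%), shares close to those of the other probes. The lowest signal marked as above background was 8.61 and 8.63 on the MDS-L arrays and 12.3 and 13.4 on the MDS-L/CDA arrays, in the same scaled units, so a dim probe had less room to be called on the latter. Of the marker genes checked, 6 of 6 myeloid progenitor genes were above background on all arrays, but not at steady levels. KIT, the stem cell factor receptor, read 22.8 with vehicle and 1080.02 with AZA in MDS-L, and 15.7 and 56.2 in MDS-L/CDA, and CD34 read 517, 376, 516 and 696 in the same order. The summed signal of the 6 was 5545 to 6550. The 3 epithelial and 3 fibroblast genes were above background on none. Of the 3 T cell genes, CD3D was above background only in MDS-L AZA, at 203, and CD3E and CD3G were on none. Of the B cell genes, CD79A was above background on all arrays and MS4A1 on none. The part of other cells in the results was not tested.

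The interval as a whole moved little with AZA. For each probe above background on both arrays of a pair, the log2 ratio was set against the median log2 ratio of other autosomal probes of like signal, and the difference is called its deviation. In MDS-L the median deviation of 165 interval probes under AZA was 0.07 (quartiles -0.19 and 0.36), and in MDS-L/CDA that of 156 probes was 0.05 (quartiles -0.19 and 0.24). The quartiles lay on both sides of 0 in both lines, and 89 of 165 and 88 of 156 probes deviated upward. For comparison, the medians of the 22 autosomes, interval left out, ran from -0.11 to 0.08 in MDS-L and from -0.07 to 0.02 in MDS-L/CDA. The interval thus lay below 1 autosome in MDS-L and above all 22 in MDS-L/CDA, by a few hundredths of a log2 unit. Each autosome median rests on more probes than that of the interval, at least 221. A smaller set can stray further by spread alone.

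The lines also differed little over the interval. MDS-L/CDA over MDS-L gave a median deviation of -0.04 in vehicle (159 probes, quartiles -0.32 and 0.15) and -0.06 with AZA (159 probes, quartiles -0.38 and 0.26). The medians of the 22 autosomes ran from -0.08 to 0.10 in vehicle and from -0.06 to 0.10 with AZA. The interval lay below 19 of them in vehicle and below all 22 with AZA, again by small amounts and with fewer probes than any autosome. The rest of chromosome 5 on the centromeric side had medians of -0.03 in vehicle and 0.04 with AZA, and on the telomeric side of 0.01 and -0.01. A different stretch of the same chromosome, itself part of the centromeric side, had larger median deviations. The first 10 Mb of 5p, a window chosen after the values were seen, had a median deviation of 0.49 in vehicle, with 41 of 50 probes above 0, and 0.64 with AZA, with 39 of 49 above 0. The 10 Mb windows next to the interval, centromeric then telomeric, had medians of -0.09 and -0.05 in vehicle and -0.04 and 0.19 with AZA. No window of this length was taken on other chromosomes. With AZA over vehicle the 5p window gave -0.11 in MDS-L and -0.03 in MDS-L/CDA. In bulk RNA, fewer cells of a type and less RNA per cell cannot be told apart in any of these values.

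Along the interval the step medians spread most under AZA in MDS-L, which was not tested. In steps of 5 Mb from its start, the median deviation was 0.12, 0.13, -0.01 and -0.04, and in the last 6 Mb it was 0.32 (32 probes, 19 of them above 0). The quartiles of that last stretch were -0.20 and 0.50, so a part of its probes moved the other way. In MDS-L/CDA the last stretch had a median of 0.18 (31 probes), and the other 4 ran from -0.01 to 0.12. Between the lines the steps ran from -0.13 to -0.0046 in vehicle and from -0.14 to 0.04 with AZA.

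The list of genes around 5q32 and 5q33.1, a region often lost in MDS with isolated 5q deletion, overlaps this last stretch. It has 37 genes with 52 probes, of which 31 probes of 23 genes were measured in MDS-L. Their median deviation under AZA was 0.34 in MDS-L, and 0.18 in MDS-L/CDA. In MDS-L 0 of the 31 were at least 2-fold higher and 2 at least 2-fold lower, beside 4.29% and 5.97% of other autosomal probes, and in MDS-L/CDA 1 of 30 was higher and 2 lower, beside 1.94% and 2.91%. Counts this small say nothing particular of the list. Their median log2 ratio was 0.12 in MDS-L and 0.20 in MDS-L/CDA, beside -0.15 and 0.01 over other autosomal probes. ZNF300, a zinc finger gene, is one of them, and its 2 probes read 119, 201, 124 and 152, and 65.4, 124, 53.4 and 72.7, on the arrays of MDS-L with vehicle and with AZA, then MDS-L/CDA with vehicle and with AZA. Both probes were highest in MDS-L AZA. ZNF300 is not typical of the list. Its second probe had the largest AZA ratio of the list in MDS-L, 0.92 on the log2 scale, and the list ran down to -1.23 there. The order of the arrays is the same in every set of 4 signals that follows.

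Few single members reached 2-fold under AZA in MDS-L. Signal was at least 2-fold higher for 3 of 165 probes (1.82%, against 4.29% of other autosomal probes) and at least 2-fold lower for 10 (6.06%, against 5.97%). The balance depends on the scaling, with 7 higher and 6 lower when the percentile was taken over probes above background on all arrays, and 31 lower with median scaling. The shares of other autosomal probes were not counted under these scalings. Their median log2 ratio moved too, from -0.15 to 0.03 and to -0.70, so these counts say nothing particular of the interval. In MDS-L/CDA 4 of 156 probes were at least 2-fold higher (2.56%, against 1.94%) and 3 at least 2-fold lower (1.92%, against 2.91%). The pooled SD between spots of 1 probe on an array was 0.18 to 0.29 on the log2 scale, which gives a ratio under AZA an SD of 0.28 in MDS-L and 0.37 in MDS-L/CDA from spots alone.

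REEP2 was the only member at least 2-fold higher with AZA in both lines among the 155 probes above background on all 4 arrays. Its signals were 46.9, 193, 38.7 and 91.7. Both AZA arrays were above both vehicle arrays, by 4.11-fold in MDS-L and 2.37-fold in MDS-L/CDA. With normexp background correction, which adds an offset and draws dim probes towards no change, the log2 ratio was 1.32 in MDS-L and 0.57 in MDS-L/CDA, the latter short of 2-fold. KLHL3, the substrate adaptor of a cullin-3 ubiquitin ligase, read 29.6, 58.0, 17.7 and 32.7, a ratio of 1.96 in MDS-L and 1.85 in MDS-L/CDA. It was higher with AZA in each line, just short of 2-fold.

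KIF3A read 89.0, 261, 103 and 106.9. It was 2.93-fold higher with AZA in MDS-L and 1.03-fold in MDS-L/CDA, so a single array stood apart. The other KIF3A probe was above background on no array. MIR143HG, the host transcript of the microRNAs miR-143 and miR-145, read 14.8, 47.6, 16.8 and 11.8 at 1 of its 7 probes, 3.21-fold higher in MDS-L and short of 2-fold with normexp, at a log2 ratio of 0.61. The last of these signals and all signals of the other 6 probes were not well above background. AFF4, a scaffold of the super elongation complex, read 26.9, 53.2, 40.6 and 45.0 at the probe with the larger ratio, 1.98 in MDS-L, and its second probe gave a log2 ratio of 0.54 there.

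CXCL14, a chemokine gene of 5q31, was above background in MDS-L AZA alone. Its signals were 1.89, 18.0, 2.64 and 2.65, and the ratio in MDS-L was at least 2.09-fold. The other 6 genes of the 5q31 cytokine list, IL3, CSF2, IL4, IL5, IL13 and IL9, were not well above background on any array. These cells thus gave no measurable transcript of the interleukin-3 gene on the array, with interleukin-3 supplied in the medium. PDGFRB, a receptor gene of the interval, was likewise above background on none.

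Among the members that fell, VTRNA1-1 fell in both lines. Its signals were 58.4, 14.5, 42.2 and 10.8, the last not well above background. The ratio was 0.25 in MDS-L, and the fall in MDS-L/CDA was at least 3.15-fold. With normexp the log2 ratio in MDS-L was -0.76, against -2.01, which is no longer past 2-fold. The related VTRNA1-2, VTRNA1-3 and VTRNA2-1, named here after their values were seen, were above background on no array. LEAP2, which encodes a secreted peptide that blocks the ghrelin receptor, read 138, 54.1, 81.3 and 43.0, with a ratio of 0.39 in MDS-L and 0.53 in MDS-L/CDA. Its second, dimmer probe was also lower with AZA in both lines, by at least 1.96-fold and at least 1.20-fold. With normexp the MDS-L log2 ratio of the brighter probe was -0.93, short of 2-fold.

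LARS, the cytoplasmic leucyl-tRNA synthetase, read 665, 252, 436 and 441. Its ratio was 0.38 in MDS-L and 1.01 in MDS-L/CDA. DDX46, a helicase of the spliceosome, read 189, 85.3, 202 and 142 and was lower with AZA in each line. In the list of RNA binding and translation genes, 17 genes with 20 probes were all measured, 0 probes were at least 2-fold higher and 2 at least 2-fold lower in MDS-L, these being LARS and DDX46, beside 4.29% and 5.97% of other autosomal probes. The list had a median log2 ratio of -0.23 there, beside -0.15 over other autosomal probes. In MDS-L/CDA none of the 20 probes reached 2-fold in either direction, and CNOT8, a deadenylase of the CCR4-NOT complex, lay next to it at 790.5, 620, 743 and 372, a ratio of 0.50.

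Some genes had several measured probes. Under AZA the log2 ratios of 1 gene's probes spread over a median of 0.26 in 30 genes in MDS-L and 0.32 in 29 genes in MDS-L/CDA, and they differed by at least 1 in 2 and 3 genes. The probes named next are among those that differed more. SKP1 read 7591, 7583, 7985 and 5388 at its bright probe, with no drop in MDS-L, but 290, 98.35, 68.1 and 74.2 at its dim one, where the ratio in MDS-L was 0.34. IRGM read 86.9, 42.8, 67.2 and 76.2 at the upstream probe and 169.5, 259, 194 and 90.75 at the downstream one. These probes moved in opposite directions with AZA in each line. The upstream rise in MDS-L/CDA, 0.18 on the log2 scale, was within the spread between spots. The upstream PPARGC1B probe read 252, 108, 314 and 320 and the downstream one 235, 191, 434 and 142, so the first fell in MDS-L only and the second in MDS-L/CDA by more than in MDS-L. WDR55, a nucleolar protein of ribosomal RNA processing, fell from 68.3 to 31.1 in MDS-L at 1 probe, while another read 792 and 673. JADE2, a chromatin reader named after its value was seen, and an unnamed transcript, ENST00000506710, complete the 10 probes that fell, the latter at 39.8, 12.95, 45.7 and 36.65. With normexp the log2 ratio of ENST00000506710 in MDS-L was -0.48 and that of the downstream IRGM probe in MDS-L/CDA was -0.78, both short of 2-fold.

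In MDS-L/CDA the largest AZA ratio was that of KIAA0141, the older name of DELE1, which relays mitochondrial stress. Its signals were 177, 194, 96.4 and 257, a ratio of 2.66 in MDS-L/CDA and 1.10 in MDS-L. The MDS-L/CDA vehicle array was the lowest of the 4. Its second probe read 1024, 1100, 933 and 1216, a smaller change in the same direction. HBEGF, a ligand of the EGF receptor, read 77.3, 147, 95.7 and 214 and was higher with AZA in both lines, by 1.90-fold and 2.23-fold. SPARC, a matricellular glycoprotein, read 65.0, 87.1, 86.1 and 176, by 1.34-fold and 2.05-fold. With normexp the log2 ratios in MDS-L/CDA were 0.90 for KIAA0141, 0.72 for HBEGF and 0.69 for SPARC, all short of 2-fold. Among probes above background on 1 array of the pair, APBB3, an adaptor that binds the amyloid precursor protein, was at least 2.49-fold higher at a dim probe, whereas its brighter probe read 223, 226, 234 and 285. CD14, the lipopolysaccharide coreceptor of monocytes, read 16.02, 10.7, 4.71 and 24.02 and was at least 1.95-fold higher.

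HINT1, a nucleotide-binding hydrolase, was among the brightest members and read 17221, 16266, 17420 and 7493. Only the MDS-L/CDA AZA array was low, a ratio of 0.43. PITX1, a homeobox factor, fell in both lines at its brighter probe, with 16201, 8393, 19758 and 10353 and ratios of 0.52 in each line. Its second probe read 2519, 1564, 3596 and 3125, lower with AZA by less. H2AFY, the histone variant macroH2A, was the brightest member and read 29627, 22888, 32903 and 36349, lower with AZA in MDS-L and higher in MDS-L/CDA, by under 2-fold in each. LYRM7, an assembly factor of respiratory complex III, read 37.5, 9.61, 5.22 and 23.5. The middle signals were not well above background, which gives a fall of at least 3.90-fold in MDS-L and a rise of at least 1.91-fold in MDS-L/CDA.

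Genes proposed as dosage genes of the 5q deletion were next. Of 17 such genes with 24 probes, 21 probes of 16 genes were measured, and TIFAB was above background on no array. In MDS-L AZA 0 were at least 2-fold higher and 0 at least 2-fold lower, and in MDS-L/CDA AZA 1 was higher, SPARC, and 0 lower. Beside 4.29% and 5.97% of other autosomal probes in MDS-L and 1.94% and 2.91% in MDS-L/CDA, counts over 21 probes say nothing particular of these genes. Their median log2 ratio was -0.13 and 0.14, beside -0.15 and 0.01 over other autosomal probes. For MDS-L/CDA over MDS-L, the median deviation of the 21 probes was -0.16 in vehicle and -0.14 with AZA. That of the whole interval was -0.04 and -0.06. This difference was not tested. CSNK1A1, which encodes casein kinase 1 alpha, read 105, 86.8, 70.0 and 79.4. DIAPH1, a formin that nucleates actin, read 13999.7, 10613, 9769 and 10753 at its bright probe. CTNNA1, an adherens junction protein, read 1591, 1718, 1697 and 1820 at its bright probe.

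The remaining lists hold few measured probes, and their counts are to be read beside the same shares of other autosomal probes, 4.29% higher and 5.97% lower in MDS-L and 1.94% and 2.91% in MDS-L/CDA. Of 28 genes of 5q31.2, 20 probes of 17 genes were measured, and 1 probe, REEP2, was at least 2-fold higher and 0 lower in each line, and their log2 ratios had medians of -0.09 and 0.02 in MDS-L and MDS-L/CDA. Of 13 ubiquitin and cell cycle genes, 15 probes of 12 genes were measured, with 0 higher and 1 lower in MDS-L, the dim SKP1 probe, and 0 in either direction in MDS-L/CDA (medians -0.10 and 0.11). Of 19 genes of receptors and signalling, 9 were above background on any array. They gave 12 probes in MDS-L, with 0 past 2-fold, and 11 in MDS-L/CDA, with 1 higher, HBEGF (medians -0.25 and 0.14). Of 12 solute carriers, which move small molecules across membranes, 4 probes were measured and 0 passed 2-fold in either line (medians 0.15 and 0.28). Of 7 genes of the SPINK cluster, which encode serine protease inhibitors, 1 was measured, at a log2 ratio of 0.02 and -0.02.

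The response to AZA was partly shared by the lines. Across the 155 interval probes above background on all 4 arrays, the log2 ratios of the lines had a Pearson correlation of 0.40 and a Spearman correlation of 0.44, as a description across probes, several of which share a gene. Other autosomal probes gave 0.37 and 0.35 (n = 16980). Both ratios were within 0.5 log2 units of 0 for 88 interval probes (56.8%), beside 53.4% of the others. The responses differed by at least 2-fold for 13 (8.39%), beside 10.4% of the others. The downstream IRGM probe had the largest of these differences, 1.71 on the log2 scale. Next in size were the dim SKP1 probe, lower with AZA in MDS-L alone, KIF3A, higher in MDS-L alone, and LARS, lower in MDS-L alone.

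Between the lines in vehicle, 1 of 159 interval probes was at least 2-fold higher in MDS-L/CDA (0.629%, against 1.59% of other autosomal probes) and 2 at least 2-fold lower (1.26%, against 2.25%). The higher one was a dim probe of ETF1, the translation termination factor, at 29.9, 28.4, 81.7 and 65.4. It was higher in MDS-L/CDA under both treatments, while the bright ETF1 probe read 1218, 789, 1271 and 1235. The lower ones were the dim SKP1 probe, with a ratio of 0.23, and GM2A, the lysosomal GM2 activator, at 370, 401, 175 and 208. GM2A was lower in MDS-L/CDA with and without AZA, though its second, dimmer probe gave 47.3, 37.9, 47.15 and 30.01. With normexp the log2 ratio of the dim ETF1 probe was 0.70 and that of GM2A was -0.94, both short of 2-fold. MATR3, an RNA-binding protein of the nuclear matrix, read 619, 772, 1100 and 1056 and was higher in MDS-L/CDA, by 1.78-fold in vehicle.

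With AZA, 9 of 159 interval probes were at least 2-fold higher in MDS-L/CDA than in MDS-L (5.66%, against 5.44%) and 5 at least 2-fold lower (3.14%, against 3.78%), close to the background shares. The balance turned with the scaling, to 3 higher and 11 lower with the percentile over probes above background on all arrays and to 1 higher and 19 lower without scaling. The shares of other autosomal probes were not counted under these scalings, and their median log2 ratio moved too, from 0.23 to -0.01 and to -0.27. TCOF1, the nucleolar protein treacle, supplied 2 of the higher probes. Its 3 probes read 63.2, 37.2, 74.4 and 96.5, then 206, 132, 265 and 295, then 3301, 2244, 4232 and 3783. All 3 were lower with AZA in MDS-L, by 0.77, 0.64 and 0.56 on the log2 scale, and all were higher in MDS-L/CDA than in MDS-L on the AZA arrays. The 5 lower probes were those of IRGM (downstream), KIF3A, HINT1, REEP2 and ARAP3, a GTPase-activating protein. ARAP3 read 890, 1302, 577 and 606, lower in MDS-L/CDA under both treatments. With normexp the ratios of both TCOF1 probes (0.58 and 0.75 on the log2 scale), of the dim ETF1 probe (0.55), of ENST00000506710 (0.49), of the upstream PPARGC1B probe (0.83) and of REEP2 (-0.85) were short of 2-fold. The comparisons with AZA share arrays with those of AZA over vehicle, so their values are not independent of them.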

How the data were processed

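Each of 4 single-dye arrays measured the RNA of 1 condition, MDS-L or MDS-L/CDA with vehicle or AZA. The authors deposited the intensity of each spot from Agilent Feature Extraction 10.7.1.1 (version per the file headers), background-subtracted within the array, and a value table on an unstated scale, used as an alternative. Neither the scaling nor the centring of that table is given in the sources used here.

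The analysis left out control spots and 16 probes for outlier flags. The log2 signal of a probe was its mean over spots, scaled to the 75th percentile of each array, and scaled signals are given on the linear scale. No spot of a member was saturated. A probe above background on 1 array of a pair has a lower bound on its ratio, taken from the lowest signal above background on the other array or its own signal there, whichever was higher. Deviations used 20 bins of mean signal.

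Named genes were, per comparison, the 5 largest and 5 smallest ratios and the 5 largest bounds in each direction, with the 5 brightest members and genes of 9 lists (cytokine cluster, 5q31.2, 5q32 to 5q33.1, dosage, RNA binding and translation, ubiquitin and cell cycle, receptors and signalling, solute carriers, SPINK cluster). Others are marked as named after their values were seen. The interval, members and lists were chosen with earlier results of these data known. Of 289 gene names, 219 matched RefSeq, and RefSeq places NUBP1 and DR1 on other chromosomes. Names are those of the array design. Some genes of the lists are not reported here.

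Precision is limited by the number of arrays, 1 per condition, which gives no error across cultures. The shift was also run on simulated data, with a tolerance wider than the shifts found here. That tolerance was widened after a simulated shift missed a tighter one. The simulation therefore does not check shifts of a few hundredths of a log2 unit. Normexp used limma 3.58.1 under R 4.3.3. Other steps ran in Python 3.11.15 with pandas 2.3.3, numpy 2.4.6 and scipy 1.17.1.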

Additional observations from a re-analysis of the deposited data

Results flagged for a closer look

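With 1 array per condition, 3 probes stood out because AZA moved them one way in MDS-L and the other way in MDS-L/CDA, with both ratios beyond the spread between spots, a condition added after the data had been seen. None of these differences was tested. A probe of TCOF1 (treacle) had a log2 AZA ratio of -0.77 in MDS-L and 0.37 in MDS-L/CDA, a difference of -1.14. The MDS-L/CDA value equals the spread between spots to 2 decimals, so this probe is at the limit. It is the dimmest TCOF1 probe. The brightest was lower with AZA in both lines, and the middle one was lower in MDS-L and slightly higher in MDS-L/CDA. The downstream probe of IRGM had 0.61 and -1.10, a difference of 1.71, and the upstream probe of the same gene went the opposite way in each line. That upstream rise in MDS-L/CDA was only 0.18, within the spread between spots of 0.37. FAM114A2, named after its values were seen, read 34.5 and 45.7 in MDS-L and 43.2 and 26.8 in MDS-L/CDA, vehicle first, a difference of 1.09.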

How the results depend on the processing

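No paired analysis was possible because each group holds 1 array and the labels carry no replicate numbers. The median deviation of the interval ranged over its 16 alternatives from 0.02 to 0.14 under AZA in MDS-L, 0.01 to 0.11 in MDS-L/CDA, and from -0.08 to -0.01 and -0.08 to -0.03 for MDS-L/CDA over MDS-L in vehicle and with AZA. It kept its sign, but the order-statistic 95% interval of the median held 0 in every comparison (-0.04 to 0.19, -0.01 to 0.09, -0.12 to 0.02 and -0.16 to 0.04). That interval treats probes as independent, though several share a gene, and covers their spread only. It gives no error across cultures. Of the 64 values, 12 came from scalings that cannot move a deviation, and 51 of the other 52 stayed within that interval. This is a weak check, since the interval comes from the same probes and arrays and is wide beside the shifts. Against chromosome 5 alone the MDS-L/CDA AZA value was 0.11. Scaling moved the median of all other autosomal probes, which in MDS-L AZA over vehicle was -0.15, -0.70 with median scaling and 0.03 with the percentile over probes above background on all arrays.

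Shares of other autosomal probes past 2-fold were not counted under the settings below, so the counts there say nothing particular of the interval. Counts past 2-fold depended on the settings (50 of 104 moved by over 1.5 times), and the cause was not tested. They are given in the order AZA in MDS-L higher and lower, AZA in MDS-L/CDA higher and lower, lines in vehicle higher and lower, lines with AZA higher and lower. No filter on dim probes gave 43, 23, 25, 16, 32, 8, 33 and 24. A fold of 1.5 gave 12, 25, 9, 13, 8, 11, 29 and 15. A fold of 3 gave, from the second on, 2, 0, 1, 0, 1, 0 and 0. Signal on at least 1 array gave 10 higher for AZA in MDS-L, 9 higher in MDS-L/CDA, 6 lower for the lines in vehicle and 13 lower with AZA. The percentile over probes above background on all arrays gave 7 and 6 for AZA in MDS-L and 3 and 11 for the lines with AZA. Median scaling gave 31 lower for AZA in MDS-L, and 0 higher and 18 lower for the lines in vehicle. No scaling gave 6 lower for AZA in MDS-L/CDA, 7 lower for the lines in vehicle, and 1 higher and 19 lower with AZA. Normexp gave 3 lower for AZA in MDS-L and 0 higher for AZA in MDS-L/CDA, the lines in vehicle and the lines with AZA. With 1 probe per gene name, 6 were lower for AZA in MDS-L, 0 higher and 1 lower for the lines in vehicle, and 4 higher with AZA. The interval narrowed by 5 Mb at each end gave 6 lower for AZA in MDS-L, 1 lower for the lines in vehicle and 3 lower with AZA. With the excluded names kept, 8 were lower for the lines with AZA, and the share above background was 32.9%, 33.9%, 30.3% and 31.1%. Requiring signal on all arrays gave 39.7% for MDS-L AZA.

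The 28 ratios past 2-fold of named genes came from 20 different probes. They kept their direction under all 6 normalizations, and 11 stayed past 2-fold with normexp, 23 without scaling and 26 to 28 with the others. Keeping direction is a weak check here. Scalings that move all ratios of a comparison alike moved them by under 2-fold, so they could not turn these ratios. The value table also gave ratios close to those of quantile normalization. Signal over background limits the 208 probes above background on no array, for which no ratio is given.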
